A study of Homo sapiens with 4 samples.

Results

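Heat shock proteins and chaperonins bind unfolded proteins and help them to reach or keep their shape. The set described here holds 85 protein-coding genes of the 60483 gene identifiers that were counted. Membership was set by symbol alone, namely HSPA, HSPB with a digit, HSP90, HSPD1, HSPE1, HSPH1, DNAJA, DNAJB, DNAJC, CCT with a digit, and TCP1. RNA was sequenced in 4 libraries of C4-2 cells, a human prostate cancer line in long use. C4-2-ENZ stands for the enzalutamide-resistant cells and C4-2-CON for the control cells, with 2 libraries in each group. Enzalutamide is an antiandrogen given to patients with prostate cancer, and cells were kept with or without it for 1 month, so the drug and resistance cannot be told apart. Both groups are the same line at the same range of passages, grown in RPMI medium with serum. The notes also name FGF-2 without saying which cells received it, and whether C4-2-CON received vehicle is not stated. The labels do not say whether libraries of a group came from separate cultures. The p-values therefore judge the difference between groups against how far these libraries differ within a group, and that spread may be technical.

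HSP70 proteins hold exposed stretches of a client protein. J proteins (the DNAJ genes) bring the client and start ATP hydrolysis, and exchange factors such as the HSP110 proteins let it go. HSP90 takes over clients that are nearly folded, among them steroid receptors, which it holds in a form able to bind hormone. Chaperonins are ring-shaped chambers: TRiC, built from TCP1 and the CCT proteins, folds actin and tubulin in the cytosol, and HSPD1 with its lid HSPE1 works in mitochondria.

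Gene counts summed to 45033885 and 39047453 in C4-2-ENZ and to 25589724 and 29866008 in C4-2-CON. HTSeq records not assigned to a gene, mostly reads not aligned or not unique, made up 55.41% and 56.87% in C4-2-ENZ, against 74.4% and 71.08% in C4-2-CON. This share moves with the groups, and its part in the results below was not tested. All 10 prostate epithelial markers were at 90.3 CPM (reads scaled to a common library size) or more in every library. Of 8 fibroblast and 8 leukocyte markers, 2 each were above 1 CPM. The fibroblast markers summed to between 7.29 and 7.78 CPM in C4-2-ENZ and to between 7.76 and 9.66 CPM in C4-2-CON, with COL1A2 at 0. The leukocyte markers summed to 4.15 and 4.08 CPM in C4-2-ENZ and to 1.80 and 1.57 CPM in C4-2-CON, with CD3E at 0. As in any bulk sample, a change in the mix of cell states and a change in RNA per cell cannot be told apart here.

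Chaperone genes moved in both directions, and those with the most reads were mostly lower in the resistant cells. Of the 85 members, 71 had enough counts to be tested. In C4-2-ENZ 22 were higher and 32 were lower than in C4-2-CON, and 17 were not called (edgeR quasi-likelihood test, Benjamini-Hochberg adjusted p below 0.05 over all 20325 genes tested). The 54 called members are 76.1% of those tested, against 64.7% of all genes and 73.7% of protein-coding genes. Over all genes tested, 33.0% were called higher and 31.7% lower. Among protein-coding genes these shares were 42.3% and 31.4%, so the members' 31.0% higher and 45.1% lower lean further towards lower levels. No test was made of that lean. The members' log2 fold changes ran between -1.55 and 1.50 with a median of -0.08, beside -0.016 for all genes and 0.088 for protein-coding genes. Levels in the 2 groups did not overlap for 63 of the 71, beside 81.3% of all genes and 86.5% of protein-coding genes without overlap. Replicates lay close together: over the 58 members at 10 CPM or more, the higher library of a pair exceeded the lower by a median of 1.02-fold in C4-2-ENZ and 1.03-fold in C4-2-CON. The 14 members not tested are HSPA1A, HSPB2, HSPB3, HSPB6, HSPB7, DNAJB8, DNAJB13, DNAJC5B, DNAJC5G, DNAJC15, CCT8L2 and 3 readthrough genes, none with more than 11 counts in a library.

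The members with high read counts account for most of the lower calls. Of 29 members with a mean of 100 CPM or more, 6 were higher and 20 lower, and the median log2 fold change was -0.35. Protein-coding genes at that level were called higher in 43.2% and lower in 45.4% of cases, with a median of -0.014. Between 10 and 100 CPM, 12 of 29 members were higher and 10 lower, beside 46.6% and 33.5% of protein-coding genes. Under 10 CPM 4 of 13 were higher and 2 lower, beside 34.8% and 21.3%. All members together took up 1.50% ± 0.00081 of gene counts in C4-2-ENZ and 1.63% ± 0.0078 in C4-2-CON (SD, n = 2 each). By at least 2-fold, 1 member was called higher and 8 lower under TMM, against 5 and 4 under total count scaling and 2 and 3 after a length and GC correction. Under TMM 7.58% of all genes tested were called at least 2-fold higher and 10.1% at least 2-fold lower. For protein-coding genes these shares were 8.76% and 7.26%.

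How the libraries are scaled shifts this balance. Scaling by total gene count, with no TMM factor, moved the all-gene median up by 0.19 log2 units, and then 31 members were called higher and 24 lower. All 22 members called higher under TMM kept that call, as did 24 of the 32 called lower. A correction for gene length and GC content gave 25 higher and 29 lower. The members' median was 0.10 under total count scaling, beside 0.28 for protein-coding genes, and 0.027 after the length and GC correction, beside 0.046, so its sign depends on the fit. In all 3 fits the same 17 members were higher and the same 23 were lower, and for named genes whose sign changed between these fits both values are given below.

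**Figure D1:**
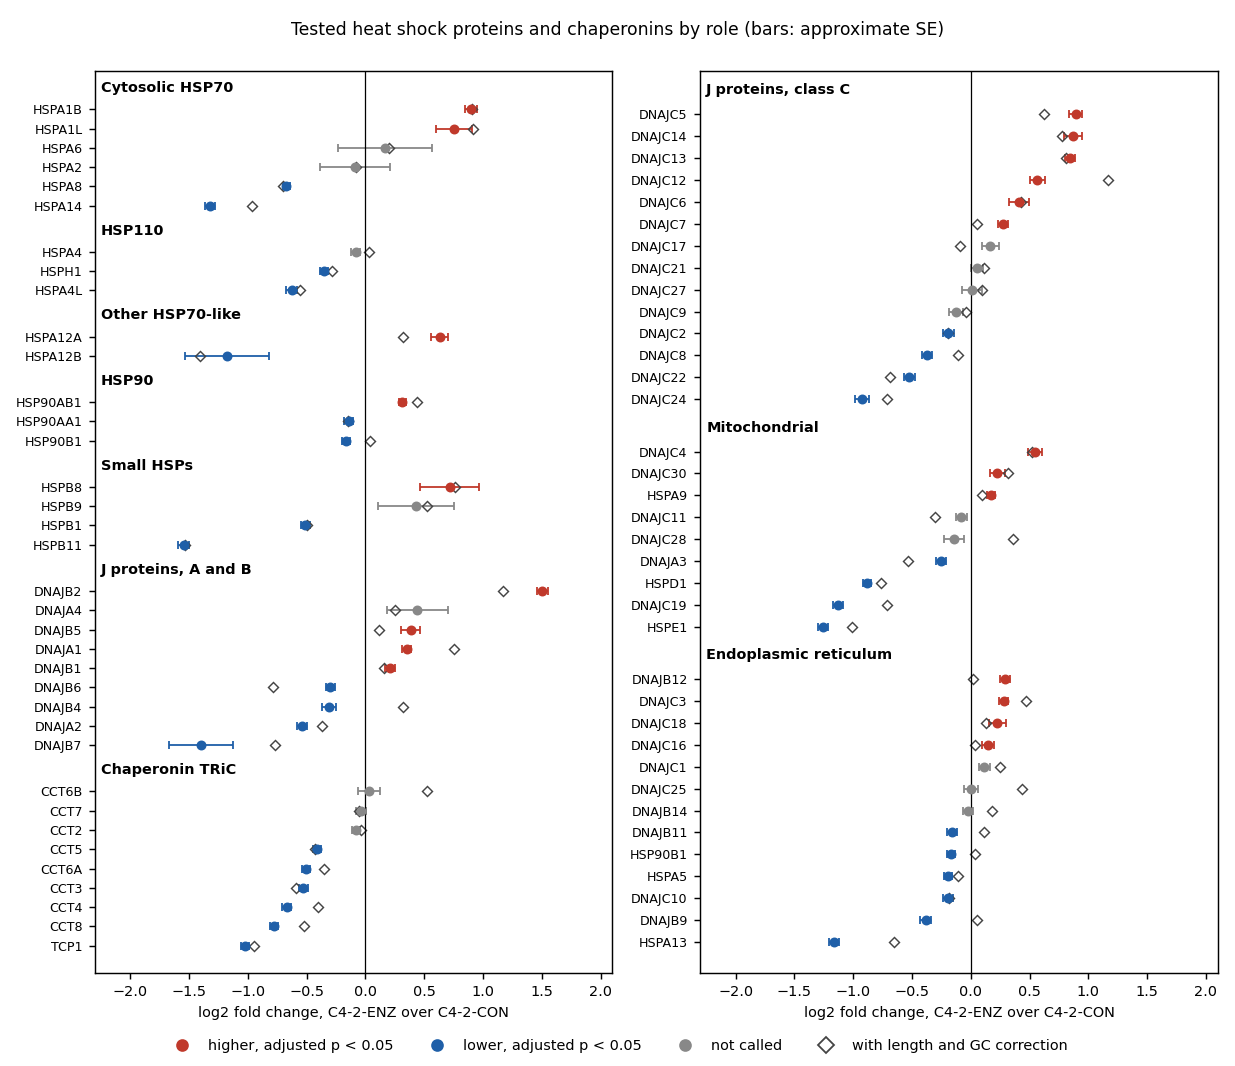
Log2 fold change of C4-2-ENZ over C4-2-CON (x axis) for each tested member (y axis), grouped by role, with an approximate standard error as bars. Red points were called higher, blue ones lower and grey ones not called, and open diamonds give the value after correction for length and GC content. DNAJB2 lies farthest to the right at 1.50 and HSPB11 farthest to the left at -1.55, and 6 of the 9 TRiC points are blue with none red, although total count scaling puts CCT2 and CCT7 among the higher calls.

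Among cytosolic HSP70 genes, the constitutive form fell while the stress-inducible form rose. HSPA8, the constitutive HSP70, had 2299 and 2290 CPM in C4-2-ENZ, against 3695 and 3618 CPM in C4-2-CON. The groups lie far apart beside the gap within each pair. It fell by 0.67 on the log2 scale (SE 0.028, edgeR adjusted p = 1.95e-09), a 1.59-fold difference. HSPA1B, a stress-inducible HSP70, had 99.1 and 102.4 CPM in C4-2-ENZ and 56.8 and 51.4 CPM in C4-2-CON. Every C4-2-ENZ value exceeded every C4-2-CON value, with a log2 fold change of 0.90 (approximate SE 0.052, edgeR adjusted p = 2.97e-08). Both directions held under total count scaling, at -0.48 for HSPA8 and 1.09 for HSPA1B. HSPA8 has 17 annotated pseudogenes, so some of its reads may have been lost as not unique.

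HSPA1B has a neighbour with nearly the same coding sequence. HSPA1A lies at chr6:31815464-31817946 and HSPA1B at chr6:31827735-31830255, both on the plus strand (GRCh38, GENCODE 29). HSPA1A had only 8 and 6 counts in C4-2-ENZ and 4 and 7 counts in C4-2-CON, and was not tested. Reads that match both genes are not unique to either, and 36.5% of the exon bases of HSPA1B are also annotated to AL671762.1 on the same strand. The split between HSPA1A and HSPA1B is therefore uncertain.

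Within a library, HSPA1B counts were 4.02% and 4.16% of the summed cytosolic HSP70 counts in C4-2-ENZ, against 1.46% and 1.34% in C4-2-CON. These shares need no scaling between libraries. With 2 libraries against 2, an exact permutation test of such a value cannot go below p = 0.333, so they are given as values without a test. HSPA1L, a relative from the same cluster that is best known from testis, was low at 5.23 and 5.21 CPM in C4-2-ENZ and at 3.69 and 2.57 CPM in C4-2-CON. It was called higher, with a difference of 0.75 in log2 units (edgeR adjusted p = 0.00121).

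HSPA14, an HSP70 that works at the ribosome, showed the largest fall of the HSP70 genes. Its level was 59.9 CPM in both C4-2-ENZ libraries, against 147.4 and 151.4 CPM in C4-2-CON. It was lower in C4-2-ENZ (log2 fold change -1.32, SE 0.042, edgeR adjusted p = 2.33e-10), and 17.4% of its exon bases are shared with another annotated gene. HSPA6, a strictly inducible HSP70, was near the limit of detection at 0.353 and 0.338 CPM in C4-2-ENZ and 0.378 and 0.250 CPM in C4-2-CON. HSPA2 was likewise under 1 CPM in all 4 libraries, and neither was called. The distant HSP70 relative HSPA12A had 13.7 and 13.1 CPM in C4-2-ENZ and 8.77 and 8.52 CPM in C4-2-CON, and was called higher with a difference of 0.63 in log2 units (edgeR adjusted p = 1.31e-05). HSPA12B, its paralog, stood at 0.228 and 0.265 CPM in C4-2-ENZ and 0.545 and 0.570 CPM in C4-2-CON. Its lower call (log2 fold change -1.18, edgeR adjusted p = 0.0126) was lost in DESeq2 and without C4-2-CON replicate 2 or either C4-2-ENZ library, at adjusted p between 0.0542 and 0.155.

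The HSP110 exchange factors were lower or not called. HSPH1, known as HSP105, had 244.7 and 248.1 CPM in C4-2-ENZ and 316.7 and 312.1 CPM in C4-2-CON. It fell by 0.35 on the log2 scale (SE 0.036, edgeR adjusted p = 3.85e-06). HSPA4L fell by 0.63, with 39.7 and 40.8 CPM in C4-2-ENZ and 63.3 and 61.0 CPM in C4-2-CON. HSPA4, known as APG-2, had 313.7 and 315.7 CPM in C4-2-ENZ and 338.6 and 328.5 CPM in C4-2-CON. Its log2 fold change was -0.08 (edgeR adjusted p = 0.0591), but 0.10 under total count scaling and 0.027 after the length and GC correction, so its direction depends on the scaling. It was called lower without C4-2-CON replicate 2 (adjusted p = 0.00164).

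J proteins of classes A and B, which pair with cytosolic HSP70, split evenly: of 9 tested, 4 were higher and 4 lower. That is 44.4% each way, beside 33.0% higher and 31.7% lower over all genes tested. DNAJB2 was called higher by at least 2-fold under TMM, under total count scaling and after the length and GC correction. It carries ubiquitin-binding motifs and passes clients to the proteasome. Its level was 72.4 and 70.2 CPM in C4-2-ENZ, against 25.4 and 24.9 CPM in C4-2-CON, and libraries of a pair differed little. The gene, at chr2:219279267-219286900, had a log2 fold change of 1.50 (approximate SE 0.048, edgeR adjusted p = 2.25e-10), and 1.17 after correction for length and GC content.

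DNAJA1 and DNAJB1 are J partners of cytosolic HSP70, and both rose, while the class A partner DNAJA2 fell. DNAJA1 had 232.4 and 234.0 CPM in C4-2-ENZ and 186.5 and 179.5 CPM in C4-2-CON, with a difference of 0.35 in log2 units (edgeR adjusted p = 8.16e-06). DNAJB1, a common reporter of the heat shock response, had 85.7 and 85.4 CPM in C4-2-ENZ and 71.4 and 76.6 CPM in C4-2-CON, with a difference of 0.21 in log2 units (edgeR adjusted p = 0.00199). With HSPA8 lower, their ratio to it moved further than either level. DNAJA1 counts were 0.101 and 0.102 of HSPA8 counts in C4-2-ENZ, against 0.0505 and 0.0496 in C4-2-CON. For DNAJB1 the ratio was 0.0373 in both C4-2-ENZ libraries, against 0.0193 and 0.0212 in C4-2-CON.

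DNAJA2, another class A protein of the cytosol, fell to 119.4 and 122.9 CPM in C4-2-ENZ, against 176.0 and 175.9 CPM in C4-2-CON (log2 fold change -0.54, edgeR adjusted p = 2.33e-07). DNAJB7 was rare, at 0.394 and 0.627 CPM in C4-2-ENZ and 1.30 and 1.35 CPM in C4-2-CON. It was called lower with a log2 fold change of -1.40 (approximate SE 0.27, edgeR adjusted p = 7.36e-04), on 19 and 26 reads in C4-2-ENZ and 31 and 38 reads in C4-2-CON. DNAJB4 was called lower at -0.31 under TMM but higher at 0.32 after the correction for length and GC content, so its direction depends on that choice. DNAJB5 was called higher at 0.39 but lost the call after that correction (0.12). DNAJB6 was called lower at -0.30, with -0.78 after that correction. DNAJA4 was not called at 0.44, except as higher under total count scaling (0.63, adjusted p = 0.049).

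Class C J proteins outside mitochondria and the endoplasmic reticulum are a mixed group with many special tasks. Of 14 tested, 6 (42.9%) were higher and 4 (28.6%) lower, and the median log2 fold change was 0.11. Protein-coding genes were called higher in 42.3% and lower in 31.4% of cases, and all genes tested in 33.0% and 31.7%. DNAJC5, the cysteine string protein of secretory vesicles, had 186.8 and 181.7 CPM in C4-2-ENZ, against 93.8 and 104.7 CPM in C4-2-CON (log2 fold change 0.89, SE 0.052, edgeR adjusted p = 2.94e-08). DNAJC14, which binds dopamine receptors on their way to the surface, had 51.5 and 49.2 CPM in C4-2-ENZ and 24.8 and 30.2 CPM in C4-2-CON. It was called higher with a log2 fold change of 0.87 (approximate SE 0.076, edgeR adjusted p = 1.01e-06). Its C4-2-CON pair differed by 1.22-fold, the widest gap within a pair among the 58 members at 10 CPM or more, and 58.1% of its exon bases overlap other genes on either strand, so part of the count may belong to them. Apart from these and DNAJC24, the list lay between -0.52 for DNAJC22 and 0.84 for DNAJC13, a protein of endosomal sorting.

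DNAJC24, which takes part in the diphthamide modification of translation elongation factor EEF2, went the other way. It had 13.6 and 13.8 CPM in C4-2-ENZ, against 26.2 and 25.9 CPM in C4-2-CON. The groups did not overlap, and the log2 fold change was -0.93 (SE 0.059, edgeR adjusted p = 6.55e-08). Over all 39 tested DNAJ genes, 16 (41.0%) were higher and 13 (33.3%) lower. These shares are close to the 42.3% and 31.4% of protein-coding genes, beside 33.0% and 31.7% of all genes tested. The median log2 fold change of the DNAJ genes was 0.052, beside 0.088 for protein-coding genes.

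The cytosolic HSP90 paralogs moved apart. HSP90AB1, the constitutive form, had 1548 and 1570 CPM in C4-2-ENZ, against 1254 and 1259 CPM in C4-2-CON. It rose by 0.31 on the log2 scale (SE 0.030, edgeR adjusted p = 2.34e-06), a 1.24-fold difference, and by 0.50 under total count scaling and 0.44 after the length and GC correction. HSP90AA1, the inducible form, had 1333 and 1415 CPM in C4-2-ENZ and 1549 and 1486 CPM in C4-2-CON. It was called lower by a small margin, with a log2 fold change of -0.14 (approximate SE 0.037, edgeR adjusted p = 0.00502). That call was lost without C4-2-ENZ replicate 1 (adjusted p = 0.156) and without the count filter (0.595), and the value was 0.045 under total count scaling.

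HSP90AB1 counts were 1.16 and 1.11 times HSP90AA1 counts in C4-2-ENZ, against 0.809 and 0.848 times in C4-2-CON. This ratio of read counts, which takes no account of length, was higher in both C4-2-ENZ libraries. Per kilobase of exon, HSP90AB1 reached 523 RPKM in C4-2-ENZ and 422 RPKM in C4-2-CON, and HSPA8 reached 473 RPKM in C4-2-ENZ and 754 RPKM in C4-2-CON. On that scale HSP90AB1 ranked first of the members in C4-2-ENZ and HSPA8 first in C4-2-CON. HSP90B1 and HSP90AA1 ranked next in both groups. The length here merges all annotated exons of a gene, 4849 bases for HSPA8 and 2980 for HSP90AB1, and may exceed that of the main transcript. By CPM HSPA8 was the highest member in both groups, so the first rank in C4-2-ENZ depends on the length used.

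**Figure D2:**
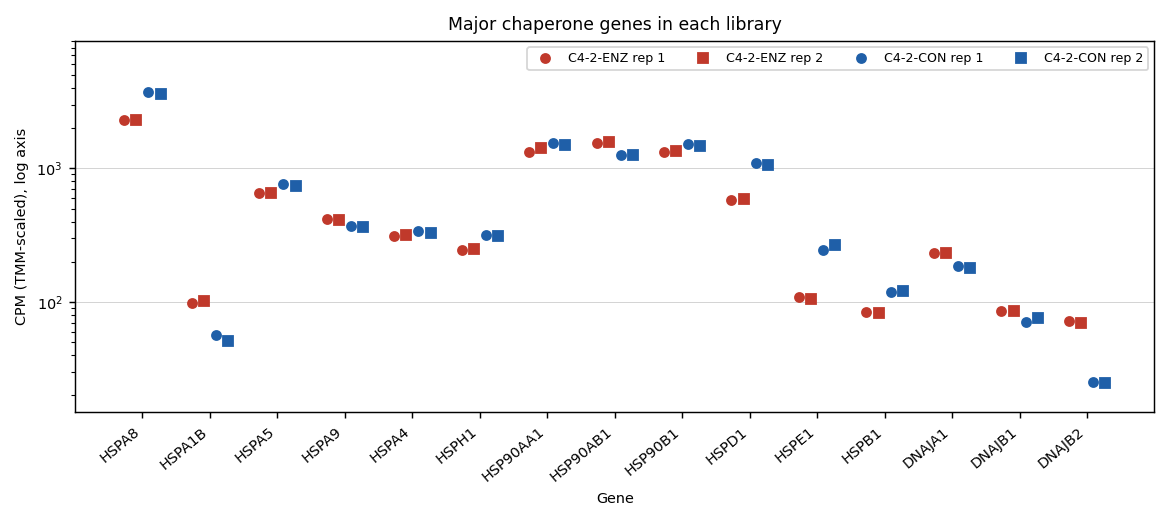
CPM on a log axis (y axis) of major chaperone genes (x axis) in each library, with C4-2-ENZ in red left of C4-2-CON in blue, circles for replicate 1 and squares for replicate 2. HSPA8, HSPD1 and HSPE1 sit lower in both C4-2-ENZ libraries, at 2299 and 2290 CPM for HSPA8 against 3695 and 3618 CPM in C4-2-CON, while HSPA1B, HSP90AB1, DNAJA1 and DNAJB2 sit higher.

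Both cytosolic HSP90 genes and several HSP70 system genes hold the binding letters of heat shock factor at their start. A heat shock element was searched on both strands as GAA, any 2 bases, TTC, any 2 bases and GAA, in windows from 250 bases before to 50 bases after each RefSeq gene start (GRCh38.p14). Of 96 windows found for 75 of the 85 members, 7.29% held it, against 0.490% of all 35116 windows. The members are DNAJA1, DNAJB6, HSP90AA1, HSP90AB1, HSPA6, HSPA8 and HSPD1. Of these, 2 were called higher, 4 lower and 1 not called. Of the 57 tested members with windows but no match, 20 were called higher and 22 lower. A match describes letters and says nothing of whether the factor binds. The stretch before the start of HSP90AB1 is shown because it holds a pair of matches in a gene that rose, at 1 of its 3 RefSeq starts. It covers the first 173 of the 250 bases before that start, chr6:44247693-44247865 on the plus strand, and stops where annotated exon bases begin. The matches (as reverse complements) are in capitals.
HSP90AB1: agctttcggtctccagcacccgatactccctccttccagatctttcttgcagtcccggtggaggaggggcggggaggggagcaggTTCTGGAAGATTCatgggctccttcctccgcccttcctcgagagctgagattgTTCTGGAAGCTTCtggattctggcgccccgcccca
The matches begin 165 and 112 bases before the gene start. For comparison, the matches of HSPA8, HSP90AA1 and HSPD1, which were lower, and of DNAJA1, which was higher, are given with short flanks, 5′ to 3′ on the strand of the gene, with the matched letters in capitals. HSPA8 (chr11, minus strand) holds a pair, the first at chr11:123062346-123062374 and the second at chr11:123062171-123062199. HSP90AA1 lies at chr14:102087112-102087140 on the minus strand, HSPD1 at chr2:197500063-197500090 on the minus strand, where matches on both strands overlap, and DNAJA1 at chr9:33025268-33025296 on the plus strand.
HSPA8, distal: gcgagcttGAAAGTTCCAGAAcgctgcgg
HSPA8, proximal: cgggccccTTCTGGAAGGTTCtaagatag
HSP90AA1: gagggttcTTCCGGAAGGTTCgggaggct
HSPD1: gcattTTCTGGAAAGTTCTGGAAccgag
DNAJA1: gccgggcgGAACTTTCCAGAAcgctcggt
Matches thus occur in members that fell, such as HSPA8 and HSPD1, and in members that rose, such as HSP90AB1 and DNAJA1. Their positions differ: the DNAJA1 match begins 3 bases after the gene start, and the others printed here begin before it. Whether the element has a part in these changes was not tested.

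Small heat shock proteins bind unfolded clients without ATP, and only 4 of the 8 listed were expressed enough to be tested. HSPB1, known as HSP27, had 84.3 and 83.4 CPM in C4-2-ENZ, against 118.0 and 120.9 CPM in C4-2-CON. It fell by 0.51 on the log2 scale (SE 0.042, edgeR adjusted p = 5.66e-07). HSPB11 showed the largest fall of any member. It is named with this family but serves as a subunit of the intraflagellar transport complex of cilia. Its level was 34.3 and 35.8 CPM in C4-2-ENZ, against 105.6 and 99.1 CPM in C4-2-CON, a 2.92-fold difference (log2 fold change -1.55, SE 0.048, edgeR adjusted p = 1.81e-10).

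HSPB8, which works with BAG3 in the removal of misfolded proteins, was low in both groups. It had 1.76 and 1.26 CPM in C4-2-ENZ and 1.05 and 0.820 CPM in C4-2-CON. The call as higher (log2 fold change 0.72, edgeR adjusted p = 0.0252) was lost in DESeq2 (adjusted p = 0.154), without C4-2-CON replicate 2 (0.105) and without C4-2-ENZ replicate 1 (0.218).

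Most TRiC subunit genes were lower in the resistant cells: of the 9 tested, 6 were lower, 0 were higher and 3 were not called, and the median log2 fold change was -0.51. Over all genes tested 31.7% were called lower. Among protein-coding genes with a mean of 100 CPM or more, a level that all of these genes but CCT6B reached, 45.4% were. No test was made of the group as a whole. Under total count scaling the same 6 lower calls stood beside 2 higher ones, for CCT2 and CCT7, with a median of -0.32. TCP1, the alpha subunit, at chr6:159778498-159789749 on the minus strand, fell furthest, with 259.2 and 257.6 CPM in C4-2-ENZ against 520.5 and 530.1 CPM in C4-2-CON. That is 2.03-fold lower in C4-2-ENZ (log2 fold change -1.02, SE 0.035, edgeR adjusted p = 3.41e-10).

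CCT8, the theta subunit, had 275.4 and 282.5 CPM in C4-2-ENZ and 478.7 and 478.5 CPM in C4-2-CON, and fell by 0.78 on the log2 scale (edgeR adjusted p = 3.21e-09). CCT4, the delta subunit, had 150.8 and 150.5 CPM in C4-2-ENZ and 238.3 and 241.3 CPM in C4-2-CON, and fell by 0.67. These falls came with no overlap between groups. CCT3, the gamma subunit, fell by 0.53, with 460.1 and 456.2 CPM in C4-2-ENZ and 642.2 and 679.3 CPM in C4-2-CON. CCT6A, the zeta subunit, fell by 0.51, with 337.3 and 341.9 CPM in C4-2-ENZ and 488.2 and 475.9 CPM in C4-2-CON. CCT5, the epsilon subunit, showed the smallest called fall, of 0.41, with 248.7 and 248.0 CPM in C4-2-ENZ and 327.5 and 333.9 CPM in C4-2-CON.

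The beta and eta subunit genes were not called. CCT2 had 285.6 and 289.2 CPM in C4-2-ENZ and 307.6 and 301.3 CPM in C4-2-CON, with a difference of -0.08 in log2 units (edgeR adjusted p = 0.0608) that was 0.11 under total count scaling. It was called lower without C4-2-CON replicate 1 (adjusted p = 0.0407) or replicate 2 (0.00435). CCT7 had 195.8 and 193.2 CPM in C4-2-ENZ and 195.2 and 203.9 CPM in C4-2-CON, with a difference of -0.04 in log2 units (edgeR adjusted p = 0.434) that was 0.15 under total count scaling. Its groups overlapped. CCT6B, a zeta paralog known from testis, had 7.40 and 8.32 CPM in C4-2-ENZ and 7.76 and 7.63 CPM in C4-2-CON and was not called, except as higher after the length and GC correction (log2 fold change 0.52, adjusted p = 1.33e-04).

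A TRiC ring holds its subunits in equal number, and the subunit genes did not keep 1 proportion between the groups. The 8 subunit genes other than CCT6B together made up 0.237% and 0.236% of gene counts in C4-2-ENZ, against 0.298% and 0.305% in C4-2-CON. Within that sum TCP1 took 11.7% and 11.6% in C4-2-ENZ and 16.3% in both C4-2-CON libraries. CCT2 took 12.9% and 13.03% in C4-2-ENZ and 9.62% and 9.29% in C4-2-CON. TCP1 counts were 0.908 and 0.891 times CCT2 counts in C4-2-ENZ and 1.69 and 1.76 times in C4-2-CON. Per kilobase the order of these genes differed as well, with TCP1 at 52.4 RPKM and CCT2 at 66.5 RPKM in C4-2-ENZ, against 106.6 RPKM for TCP1 and 70.4 RPKM for CCT2 in C4-2-CON. CCT7 took 8.85% and 8.71% in C4-2-ENZ and 6.10% and 6.29% in C4-2-CON. The shares of CCT3 and CCT6A overlapped between the groups.

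**Figure D3:**
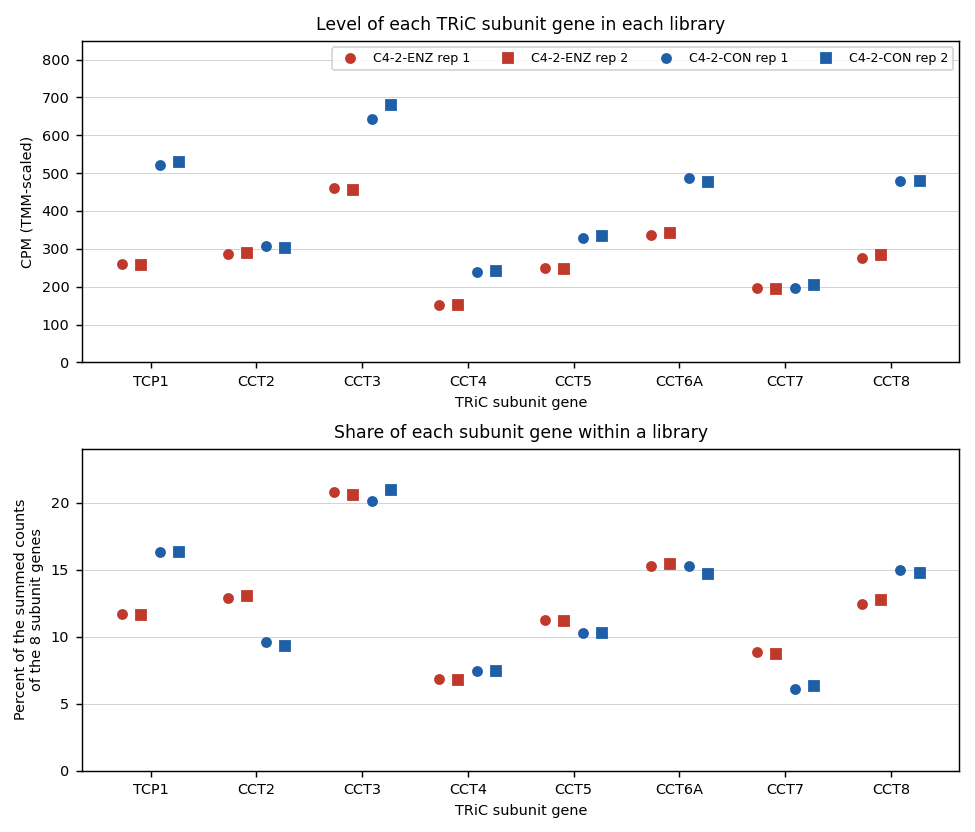
Level in CPM (upper panel, y axis) and percent of the summed counts of the 8 subunit genes (lower panel, y axis) for each TRiC subunit gene (x axis) in each library, with C4-2-ENZ in red left of C4-2-CON in blue, circles for replicate 1 and squares for replicate 2. TCP1 stands at 259.2 and 257.6 CPM in C4-2-ENZ against 520.5 and 530.1 CPM in C4-2-CON, while the CCT7 points of both groups lie together, although total count scaling gives CCT7 a higher value in C4-2-ENZ.

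In mitochondria, the chaperonin fell while the matrix HSP70 rose slightly. HSPD1, the chaperonin HSP60, had 579.7 and 590.7 CPM in C4-2-ENZ, against 1100 and 1055 CPM in C4-2-CON. It fell by 0.88 on the log2 scale (SE 0.034, edgeR adjusted p = 1.00e-09), a 1.84-fold difference. HSPE1, its lid HSP10, had 108.5 and 105.5 CPM in C4-2-ENZ, against 245.8 and 265.2 CPM in C4-2-CON, a 2.39-fold difference (log2 fold change -1.26, SE 0.046, edgeR adjusted p = 6.05e-10). HSPD1 and HSPE1 lie head to head and overlap, at chr2:197486581-197516737 on the minus strand and chr2:197499994-197503457 on the plus strand. Of the HSPE1 exon bases 9.71% are shared with another gene on the same strand and 23.9% with one on either strand. HSPE1 also has 26 annotated pseudogenes and HSPD1 has 17, so some reads of both may have been lost as not unique.

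The pair did not fall in step. HSPE1 counts were 0.187 and 0.179 of HSPD1 counts in C4-2-ENZ, against 0.223 and 0.251 in C4-2-CON. HSPA9, the mitochondrial HSP70 known as mortalin, had 415.3 and 412.2 CPM in C4-2-ENZ and 372.0 and 362.6 CPM in C4-2-CON, with a log2 fold change of 0.17 (approximate SE 0.035, edgeR adjusted p = 0.00101) that was 0.36 under total count scaling and 0.092 after the length and GC correction. Its counts were 0.716 and 0.698 of HSPD1 counts in C4-2-ENZ, against 0.338 and 0.344 in C4-2-CON. DNAJC19, a J protein of the motor that pulls proteins into the matrix, fell to 46.6 and 47.8 CPM in C4-2-ENZ, against 101.2 and 104.9 CPM in C4-2-CON (log2 fold change -1.13, SE 0.044, edgeR adjusted p = 9.88e-10). Of the others, DNAJC4 at 0.55 and DNAJC30 at 0.23 were called higher and DNAJA3 at -0.26 lower, and DNAJA3 lost its call under total count scaling. Over the mitochondrial list, 3 of 9 tested members (33.3%) were higher and 4 (44.4%) lower, beside 33.0% and 31.7% of all genes tested. The median log2 fold change of the list was -0.14. It was 0.043 under total count scaling and -0.31 after the length and GC correction, so its sign depends on the fit.

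**Figure D4:**
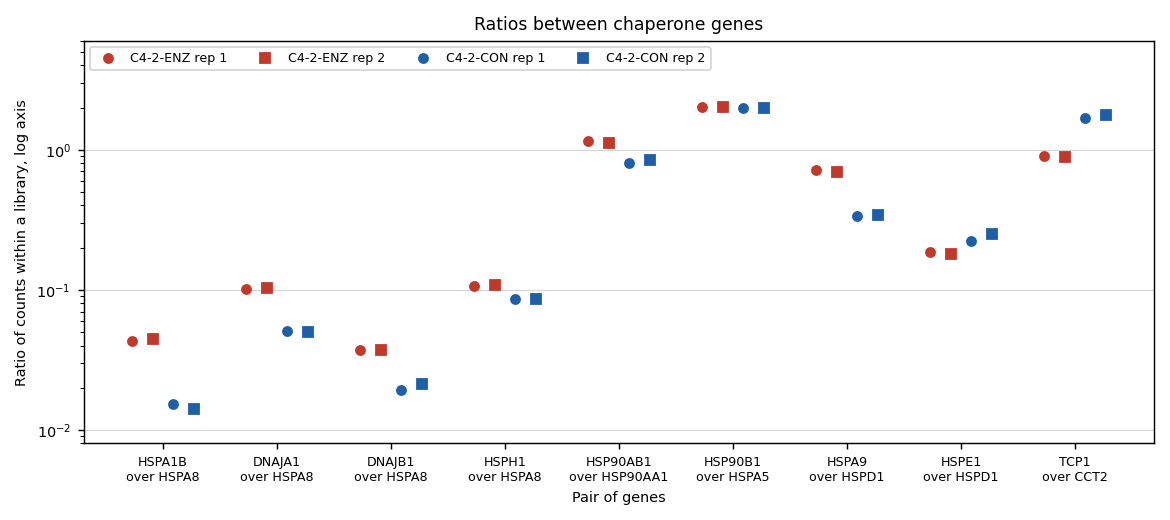
Ratio of counts of chaperone gene pairs within a library, on a log axis (y axis), for each pair named on the x axis, with C4-2-ENZ in red left of C4-2-CON in blue, circles for replicate 1 and squares for replicate 2. HSPA9 over HSPD1 stands at 0.716 and 0.698 in C4-2-ENZ against 0.338 and 0.344 in C4-2-CON, while HSP90B1 over HSPA5 lies between 1.98 and 2.03 in all 4 libraries.

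Most chaperones of the endoplasmic reticulum differed little, and their calls depended on the scaling. HSPA5, the reticulum HSP70 known as BiP, had 655.8 and 658.1 CPM in C4-2-ENZ and 764.9 and 736.2 CPM in C4-2-CON, with a log2 fold change of -0.19 (approximate SE 0.034, edgeR adjusted p = 3.46e-04) that was -0.0036 under total count scaling. Its call was lost there and without the count filter (adjusted p = 0.171). HSP90B1, the reticulum HSP90 known as GRP94, had 1324 and 1337 CPM in C4-2-ENZ and 1526 and 1461 CPM in C4-2-CON, with a difference of -0.17 in log2 units (edgeR adjusted p = 7.88e-04) that was 0.022 under total count scaling and 0.036 after the length and GC correction. The ratio of HSP90B1 to HSPA5 counts was nearly the same throughout, at 2.02 and 2.03 in C4-2-ENZ and 2.00 and 1.98 in C4-2-CON. Of the 13 members on this list, 4 were called higher and 6 lower under TMM, against 7 higher and 2 lower under total count scaling, and 2 rather than 4 were higher without either C4-2-ENZ library.

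HSPA5 and HSP90B1 were the only members whose windows held the endoplasmic reticulum stress element (CCAAT, any 9 bases and CCACG), which 2.08% of member windows and 0.0769% of all windows carried on either strand. The HSPA5 promoter is shown because it holds that element in a gene used as the standard reporter of reticulum stress, and its difference here was small. The stretch covers chr9:125241344-125241593 on the minus strand, with the element in capitals 66 bases before the gene start.
HSPA5: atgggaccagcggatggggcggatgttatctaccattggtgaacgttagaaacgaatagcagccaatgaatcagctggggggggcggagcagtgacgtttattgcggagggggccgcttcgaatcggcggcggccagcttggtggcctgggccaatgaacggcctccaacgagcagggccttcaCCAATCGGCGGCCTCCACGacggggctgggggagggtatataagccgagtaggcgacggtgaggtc

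HSPA13 stood apart from the other reticulum members. It is an HSP70 relative of the microsomal fraction that lacks the substrate-binding part, and it had 92.1 and 92.0 CPM in C4-2-ENZ, against 209.1 and 203.4 CPM in C4-2-CON. Its fall was 2.24-fold (log2 fold change -1.16, SE 0.040, edgeR adjusted p = 3.99e-10), and -0.65 after the length and GC correction. DNAJB9, a reticulum J protein that assists in the degradation of misfolded proteins, had 77.8 and 73.4 CPM in C4-2-ENZ and 101.0 and 96.3 CPM in C4-2-CON. It was called lower at -0.38 (edgeR adjusted p = 2.25e-05), but the value was 0.054 after the length and GC correction. DNAJB12, a J protein of the reticulum membrane, had 63.5 and 61.9 CPM in C4-2-ENZ and 51.5 and 51.1 CPM in C4-2-CON. It was called higher at 0.29 (edgeR adjusted p = 7.28e-05), and the value was 0.020 after the length and GC correction. The remaining reticulum members lay between -0.19 for DNAJC10 and 0.28 for DNAJC3. Among them, DNAJB11 was called lower at -0.16 under TMM but higher at 0.11 after the length and GC correction.

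The genes that work with these chaperones were also mixed, with 22 higher and 29 lower over 4 lists, against 40 higher and 19 lower under total count scaling. Each list had between 64.3% and 83.3% of its tested genes called, beside 64.7% of all genes and 73.7% of protein-coding genes. Over all genes tested 33.0% were called higher and 31.7% lower, and no test was made of these lists. Of 31 heat shock factors and co-chaperones, 9 were higher and 11 lower. HSF1, the main heat shock transcription factor, had 61.5 and 57.0 CPM in C4-2-ENZ and 46.1 and 49.3 CPM in C4-2-CON, with a difference of 0.31 in log2 units (edgeR adjusted p = 2.70e-04) that turned to -0.14 after the length and GC correction. HSBP1, a small protein that binds and restrains heat shock factor, had 110.4 and 108.9 CPM in C4-2-ENZ, against 242.8 and 242.0 CPM in C4-2-CON, and fell by 1.15 on the log2 scale (edgeR adjusted p = 3.30e-10). Of the HSP90 co-chaperones, PTGES3, known as p23, fell by 0.69 and CHORDC1 fell by 0.97. PTGES3 had 289.8 and 288.5 CPM in C4-2-ENZ and 476.0 and 458.1 CPM in C4-2-CON. CHORDC1 had 52.0 and 54.6 CPM in C4-2-ENZ and 106.6 and 101.6 CPM in C4-2-CON.

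The co-chaperones that sit on HSP90 with steroid receptors differed in their calls. FKBP4, an immunophilin of these complexes, had 335.2 and 330.0 CPM in C4-2-ENZ and 329.5 and 337.1 CPM in C4-2-CON. The groups overlapped, with a difference of -0.0030 in log2 units (edgeR adjusted p = 0.949) that was 0.19 under total count scaling and -0.16 after the length and GC correction. FKBP5, an androgen-induced relative, fell by 0.49, with 37.4 and 38.4 CPM in C4-2-ENZ and 52.9 and 53.8 CPM in C4-2-CON (edgeR adjusted p = 2.04e-06). STIP1, which joins HSP70 to HSP90, was at the threshold, with a difference of -0.09 in log2 units (edgeR adjusted p = 0.0499) and 0.096 under total count scaling. Its call was lost under most other settings, including without C4-2-CON replicate 2 or either C4-2-ENZ library. BAG3, the HSP70 exchange factor that works with HSPB8, had 18.3 and 18.4 CPM in C4-2-ENZ and 15.8 and 15.6 CPM in C4-2-CON and was called higher at 0.22 (edgeR adjusted p = 0.00692), but not in DESeq2 (adjusted p = 0.0815).

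Prefoldin hands unfolded actin and tubulin to TRiC, and of 10 tested genes of prefoldin and related helpers 2 were higher (1 without C4-2-ENZ replicate 1) and 5 lower. PFDN4 showed the largest fall among all partner genes, with 18.3 and 18.8 CPM in C4-2-ENZ against 101.6 and 92.1 CPM in C4-2-CON, a 5.23-fold difference (log2 fold change -2.39, SE 0.056, edgeR adjusted p = 2.51e-11). VBP1, another prefoldin subunit, fell by 0.83, with 128.9 and 126.1 CPM in C4-2-ENZ and 228.9 and 225.7 CPM in C4-2-CON. PFDN5 fell by 0.63, with 188.6 and 189.1 CPM in C4-2-ENZ and 291.1 and 292.2 CPM in C4-2-CON.

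Among 14 mitochondrial cofactors and proteases, 3 were higher (5 without C4-2-CON replicate 2) and 6 lower. GRPEL2, an exchange factor of HSPA9, fell by 1.11, with 82.3 and 79.6 CPM in C4-2-ENZ and 175.6 and 174.1 CPM in C4-2-CON (edgeR adjusted p = 7.26e-10). HSCB, the J protein of iron-sulfur cluster assembly, fell by 0.96, with 8.19 and 7.43 CPM in C4-2-ENZ and 15.1 and 15.5 CPM in C4-2-CON. SPG7, a protease of the inner membrane, was called higher at 0.38 but had a value of -0.18 after the length and GC correction.

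Of 18 tested folding factors of the endoplasmic reticulum, 8 were higher and 7 lower (4 without C4-2-ENZ replicate 1). ERN1, the stress sensor IRE1, had 52.3 and 51.7 CPM in C4-2-ENZ, against 28.99 and 30.2 CPM in C4-2-CON (log2 fold change 0.81, edgeR adjusted p = 5.36e-08). EIF2AK3, the stress sensor PERK, had 63.1 and 60.7 CPM in C4-2-ENZ and 40.1 and 38.6 CPM in C4-2-CON (log2 fold change 0.66, edgeR adjusted p = 1.73e-07). MANF, a secreted protein of the reticulum stress response, fell by 0.52, with 89.9 and 92.4 CPM in C4-2-ENZ and 129.8 and 132.0 CPM in C4-2-CON. XBP1 is listed at 0 in every library, which may reflect the counting, so no level is read from it.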

How the data were processed

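RNA of 4 libraries was measured. The deposited values are raw read counts for each gene, and the authors did not normalize them. Alignment with STAR 2.5.2b to GRCh38 (hg38) and counting with HTSeq are named in the submitters' processing notes. The sources used here do not give the HTSeq mode, strand setting or annotation release, so counts of overlapping, antisense or near-identical genes are uncertain. Rows that name no gene were left out of library sizes and tests.

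Identifiers were matched to GENCODE 29, which gave a name to 56753 of 60483. Counts of a pair differed by more than sampling noise (chi-square over its degrees of freedom was 2.38 for 24030 genes in C4-2-ENZ and 5.67 for 22264 genes in C4-2-CON). Each library was counted as 1 replicate, although such an excess does not show whether libraries came from separate cultures. Counts were filtered with filterByExpr (minimum count 10), scaled with TMM, and C4-2-ENZ was compared with C4-2-CON by edgeR 4.0.16 (quasi-likelihood F test, R 4.3.3), with group as the only term and 2 residual degrees of freedom. The Benjamini-Hochberg adjustment covered 20325 genes. Standard errors are the size of the log2 fold change divided by the square root of F. CPM used TMM-scaled library sizes, and RPKM divided CPM by the merged length of all annotated exons. The procedure was tested on simulated data.

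Alternatives were DESeq2 1.42.0 size factors and Wald test, total count scaling, 2 other count filters, a length and GC offset (splines with 4 degrees of freedom), a replicate block and leaving out each library. Sequences are from RefSeq (GRCh38.p14). The members and gene lists were chosen with earlier results of these data known. Named with values were the best known chaperones, the 3 called members with the largest change in each role list, the 3 partner genes with the smallest adjusted p in each partner list, and HSF1, BAG3, FKBP4, FKBP5 and STIP1. A further gene of that rule is not reported here. Other names were added after their values were seen.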

Additional observations from a re-analysis of the deposited data

How the results depend on the processing

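Members called higher in C4-2-ENZ ranged between 19 and 31 and members called lower between 24 and 35 over the 11 alternatives, with 31 higher and 24 lower under total count scaling. Partner genes called higher were 22 and called lower 29, against 40 higher and 19 lower under total count scaling. Leaving out 1 library at a time gave 19 to 22 members higher and 29 to 34 lower, and 18 to 28 partner genes higher and 23 to 30 lower. Of 58 named genes tested, 42 kept their direction and call under every alternative. Among these 58 the log2 fold change changed sign under total count scaling for HSPA4 (0.10), HSP90AA1 (0.045), HSP90B1 (0.022), CCT2 (0.11), CCT7 (0.15), FKBP4 (0.19) and STIP1 (0.096). It changed sign under the length and GC correction for HSPA4 (0.027), HSP90B1 (0.036), DNAJB9 (0.054), HSF1 (-0.14) and SPG7 (-0.18), and without the count filter for HSPA4 (0.012), CCT2 (0.013), CCT7 (0.059), FKBP4 (0.093) and STIP1 (0.0033). CCT6B, CCT7 and FKBP4, which were not called, also changed sign under some other settings. Outside the 58, DNAJB4 turned to 0.32 and DNAJB11 to 0.11 under the length and GC correction, each from a lower call to a higher one. Members outside the 58 that were not called under TMM, among them DNAJB14 and DNAJC28, also changed sign there. The cause was not tested, apart from the shift of all genes that total count scaling makes. HSP90 members called lower numbered 2, against 0 under total count scaling or without the count filter and 1 under the length and GC correction or without C4-2-ENZ replicate 1. Replicate numbers did not pair the libraries: deviations of same-numbered libraries correlated at -0.0228. The fit with a replicate block called 21 members higher and 32 lower, and 21 partner genes higher and 27 lower. Each group has 2 libraries, so small differences rest on little replication. HSPA12B, HSPB8, HSP90AA1 and STIP1 lost their calls when single libraries were left out.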

Other observations

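Pseudogenes of these families took few of the reads assigned to genes. Reads that match a pseudogene and its parent gene alike are not unique and were not assigned, so this follows in part from the counting. Of 107 annotated pseudogenes of the HSPA, HSPB, HSP90, HSPD1, HSPE1, HSPH1, DNAJ and CCT families, 18 could be tested, 6 (33.3%) were called lower in C4-2-ENZ and 0 higher, beside 31.7% lower and 33.0% higher over all genes tested (edgeR quasi-likelihood test, Benjamini-Hochberg adjusted p below 0.05). Their summed counts equalled 0.175% and 0.183% of the members' counts in C4-2-ENZ and 0.212% and 0.217% in C4-2-CON. The most counted was CCT6P1, called lower with a difference of -0.92 in log2 units (edgeR adjusted p = 6.56e-07).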
